A study of Homo sapiens with 2 samples.

Results

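Small nucleolar RNA (snoRNA) and small nuclear RNA (snRNA) genes were examined in a map of transcription start positions made by PRO-cap, a nuclear run-on assay that reads nascent RNA from its 5' end. The cells were wild-type HUDEP-2, a human erythroid progenitor line kept in culture by immortalisation, and the labels give 2 biological replicates in a single untreated group. The genes were all those with the biotype snoRNA (1190) or snRNA (149) on chromosomes 1 to 22 and X of the RefSeq gene table of GRCh38.p14, the assembly of hg38. They numbered 1339 of the 58419 genes of that table. No measured value entered the rule, although it was set with earlier results of these data known. A start was counted for a gene when a call lay within 500 bp of either gene end and had the direction that leads from that end into the gene. Such a call is termed inward. By this rule a call past the far end of a short gene was counted too, although it points away from that gene. An offset is the distance of the nearest such call from the gene end, positive on the gene's side of the end and negative outside it.

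By symbol prefix the genes comprised 357 box C/D (SNORD), 182 box H/ACA (SNORA), 26 RNU, 17 RNVU1 (variants of U1) and 28 SNAR genes, 728 genes with only a LOC number, and RN7SK. The RNU prefix takes in RNU7-1 and the snoRNA genes RNU105B and RNU105C besides the spliceosomal genes. No Cajal body RNA (SCARNA) gene had a snoRNA or snRNA biotype in the table, so 29 SCARNA genes of the biotype ncRNA are given beside the members and are not counted among them. The lists hold 26395 calls (13229 forward and 13166 reverse), of which 26332 lay on these chromosomes, and they name no replicate. Each call has a position and a score of 0, so neither the depth behind it nor its variation over replicates is known here. The intervals in parentheses after percentages are 95% Wilson intervals, which cover counting error only and treat genes as independent although neighbouring genes can share a host or a call. The erythroid genes ALAS2, AHSP, GATA1 and KLF1 all had a called start, within 3 bp of the gene end.

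Box C/D snoRNAs guide 2'-O-methylation and box H/ACA snoRNAs guide pseudouridylation, mostly of ribosomal RNA. In vertebrates most of both kinds lie in introns of a host gene and are released from the spliced intron, after which exonucleases trim the RNA back to the ends covered by its bound proteins. The spliceosomal snRNAs, and a few snoRNAs such as U3, U8 and U13, have promoters of their own that carry a proximal sequence element bound by the SNAPc complex. RNA polymerase II transcribes most of these, and RNA polymerase III transcribes U6, U6atac and 7SK.

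The promoter table of RefSeq (GRCh38.p14) holds no entry of its own for any of the 1339 genes. It does hold windows of coding genes in which a called end of a member falls, and 3 of these are printed in capitals for the annotated member gene and lower case for its flanks, because they show where the call sits on a box C/D snoRNA and on an snRNA. The stretches lie at chr18:49491655-49491789 (minus strand, from a window of RPL17-C18orf32), chr9:33934315-33934429 (minus strand, from a window of UBAP2) and chr12:6943772-6943887 (plus strand, from the window of C12orf57), and all are written 5' to 3'.
SNORD58B: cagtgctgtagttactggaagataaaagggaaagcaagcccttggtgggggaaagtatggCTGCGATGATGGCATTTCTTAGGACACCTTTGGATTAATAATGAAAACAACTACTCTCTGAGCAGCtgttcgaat
SNORD121B: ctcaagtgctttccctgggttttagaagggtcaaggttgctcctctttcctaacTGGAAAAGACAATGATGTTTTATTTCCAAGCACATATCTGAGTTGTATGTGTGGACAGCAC
RNU7-1: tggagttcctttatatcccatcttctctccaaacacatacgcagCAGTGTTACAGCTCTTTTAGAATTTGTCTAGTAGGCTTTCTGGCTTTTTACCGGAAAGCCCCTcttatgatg

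The call of SNORD58B (position 49491729) is base 61 of its print, the first capital, and that of SNORD121B (33934369) is base 61 of its print, 6 bp into the annotated gene. In both, the letters TGATG, the core of box C, begin 6 bases after the called base. The search for TGATG, on both strands, was added after the data had been seen, and 2.22% (2.07 to 2.38) of the 34961 promoter windows hold it on either strand in the 20 bases from their start. The call of RNU7-1 (6943813) is base 42 of its print, 3 bases before the annotated gene of the histone-processing U7 snRNA. This call also lies within 500 bp of an end of C12orf57 and points into that gene, so the snRNA and C12orf57 cannot be told apart there. The UBAP2 window is itself placed on an annotated start 5 bp from the SNORD121B call, so that gene and snoRNA cannot be told apart there.

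Called starts were found at a minority of box C/D and snRNA genes and hardly at box H/ACA genes. Of the 1339 genes 143 (10.7%, 9.14 to 12.4) had a start within 500 bp, against 18.3% of all genes and 18.5% of genes other than these, and 107 (7.99%, 6.66 to 9.57) had it within 10 bp of the gene end, against 7.81% of all genes. As a whole the genes were thus below the share of all genes in the wide window and at it in the narrow one, and the classes differed. SNORD genes had a start in 92 of 357 cases (25.8%, 21.5 to 30.5) and within 10 bp in 75 (21.0%, 17.1 to 25.5), SNORA genes in 13 of 182 (7.14%, 4.22 to 11.8) and within 10 bp in 1 (0.549%, 0.0971 to 3.05). After calls were moved by 10 kb down and up, the SNORA share within 500 bp was 4.95% and 1.65%, and the first of these lies inside the interval of the reported share. RNU genes had 19 of 26 (73.1%, 53.9 to 86.3), 15 of them within 10 bp, and RNVU1 genes 10 of 17 (58.8%, 36 to 78.4), all 10 within 10 bp. Genes known only by a LOC number had 8 of 728 (1.10%, 0.558 to 2.15), which lies between the 0.824% and 1.65% found after calls were moved by 10 kb down and up, and SNAR genes 0 of 28, which allows a share of up to 10.7%. For comparison, protein-coding genes had a start in 41.4% within 500 bp and in 19.0% within 10 bp, long noncoding genes in 9.53% and 2.24%, and tRNA genes in 50.8% and 44.3%.

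**Figure D1:**
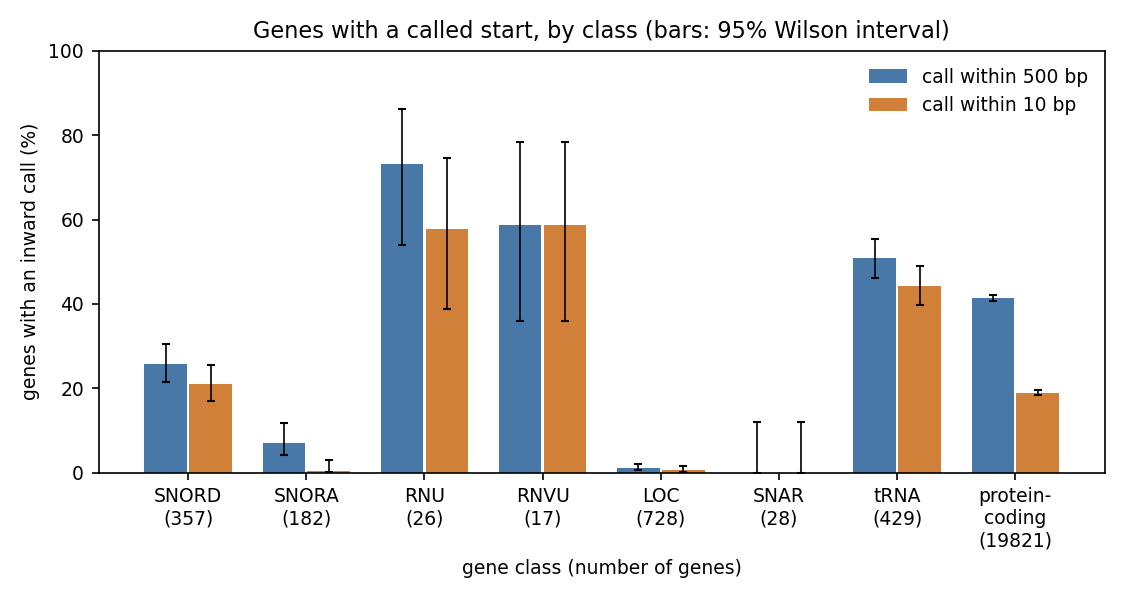
Share of genes with an inward call (%) within 500 bp (blue) and within 10 bp (orange) of a gene end, for the snoRNA and snRNA gene classes and, at the right, tRNA and protein-coding genes, with the number of genes under each class and 95% Wilson intervals. SNORD genes keep 75 of their 92 called genes in the narrow window and SNORA genes 1 of 13.

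The 143 genes were reached by 153 distinct calls, and 32 of these calls pointed into more than 1 member. By number, 96 genes had 1 inward call, 38 had 2 and 9 had 3. The genes with 3 included SNORD13, SNORD25, SNORD26, SNORD27, SNORD30, SNORD36A, SNORD44 and SNORD78. Because the genes are short (median 104 bp), a window of 500 bp reaches beyond them. For 10 genes the nearest inward call lay past the far end of the gene and so pointed away from it. These were 3 SNORD, 2 SNORA, 3 RNU and 2 LOC genes, and they are included in the shares within 500 bp. After a move of all calls by 10 kb, 2.02% (upward) and 1.57% (downward) of the genes had an inward call within 500 bp. Just inside the 500 bp limit lay SNORA32 and SNORD49B (both 473 bp away) and RNU6-8 (497 bp), and just outside it SNORD86 (527 bp), SNORD1B (529 bp) and SNORA1 (561 bp).

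At SNORD genes most calls lay within a few bases of the annotated end of the snoRNA. Of the 75 genes with a call within 10 bp, 31 had it on the end itself and 47 within 1 bp, with 30 inside the gene by up to 8 bp and 14 outside with offsets down to -3 bp. The first 10 by alphabet among those at offset 0 were SNORD110, SNORD118, SNORD18A, SNORD19C, SNORD24, SNORD25, SNORD26, SNORD27, SNORD28 and SNORD29. A further 6 genes had the nearest call 11 to 27 bp inside, namely SNORD121A and SNORD12B (11 bp each), SNORD105B and SNORD19B (14 bp each), SNORD58C (16 bp) and SNORD30 (27 bp). The nearest calls of the other 11 lay at 107 bp or more, with none in between, 7 of them on the end of a neighbouring member. The 75 genes were shorter (median 72 bp, quartiles 68.5 and 76) than the 105 SNORD genes without such a call in hosts with a called start (median 88 bp, quartiles 76 and 101), and the 6 genes with a call further inside had a median of 91.5 bp.

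**Figure D2:**
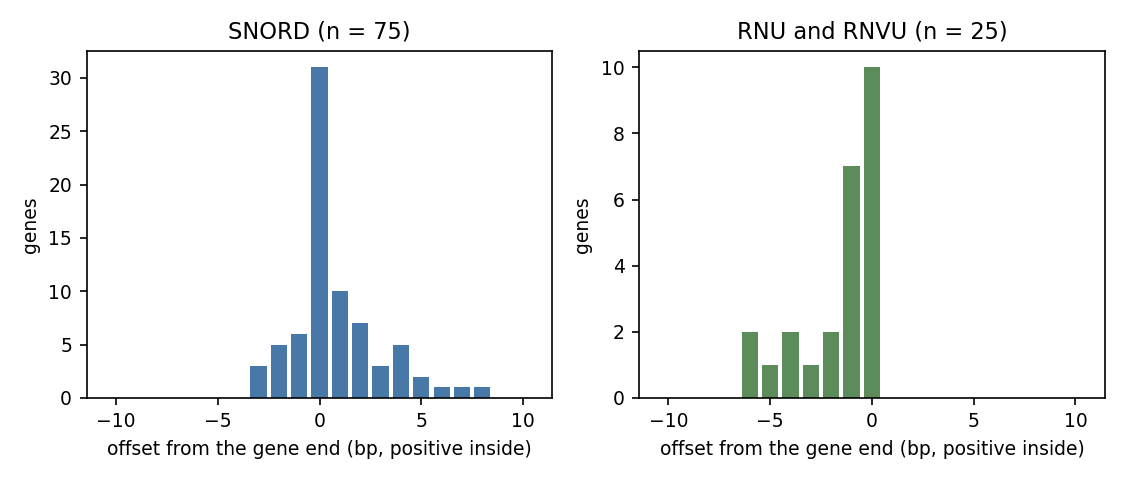
Offset of the nearest inward call from the gene end (bp, positive inside the gene) for the 75 SNORD genes and the 25 RNU and RNVU1 genes with a call within 10 bp, where bars count genes. SNORD offsets run from -3 to 8 bp, and RNU and RNVU1 offsets from -6 to 0 bp.

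The calls ran in the direction of the host gene. A host was any protein-coding, long noncoding or transcribed pseudogene whose outer coordinates contain the snoRNA gene, and its strand was taken from the promoter table where listed. Among SNORD genes with a call within 10 bp and a host of known strand, the call ran with the host in 59 of 60 cases (98.3%, 91.1 to 99.7). The exception was SNORD3K, a copy of the U3 family, which lies on the other strand within METTL5. Over 254 SNORD genes in hosts of known strand, 65 calls on the host strand lay within 200 bp of the 5' end of the snoRNA, 59 of them within 10 bp, against 3 calls on the other strand, none of them within 10 bp. The same count over 130 SNORA genes gave 2 calls on the host strand, 1 of them within 10 bp, and 2 on the other strand. No member of any class had an outward call within 10 bp of an end (0 of 1339, which allows up to 0.224%). Calls on one strand lay at least 251 bp apart. A much shorter gene with an inward call at one end could thus not have an outward call at its other end. For such genes only the end with the inward call was open to this count.

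**Figure D3:**
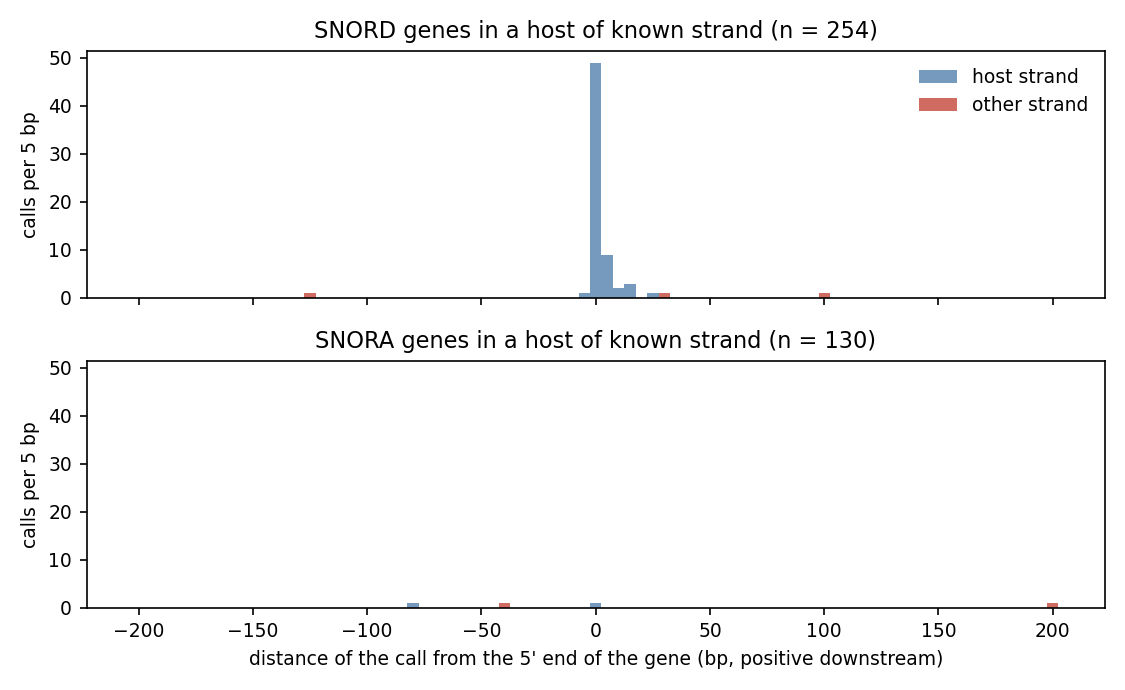
Calls per 5 bp by distance from the 5' end of the snoRNA gene (bp, positive downstream, the end being set by the host's strand), on the host strand (blue) and the other strand (red), for 254 SNORD genes (top) and 130 SNORA genes (bottom). The SNORD panel holds a single peak at 0 on the host strand, with 59 of 65 host-strand calls within 10 bp, and the SNORA panel none.

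SNORD genes in hosts with a called start had a call at their own end more often than those in other hosts, without a test, and SNORA genes in either had next to none. A host's start was counted as called when an inward call, other than one at a member's end, lay within 500 bp of either outer end of the host. Of 168 SNORD genes in hosts with a called start, 63 (37.5%, 30.5 to 45.0) had a call within 10 bp, against 10 of 171 (5.85%, 3.21 to 10.4) in hosts without one. Without the SNORD113 to SNORD116 genes, the share in hosts without a called start was 10 of 53 (18.9%, 10.6 to 31.4). Of these 10 genes 8 lay in GAS5 alone, and the others in RPS3A and SNHG12. Of 128 SNORA genes in hosts with a called start, 1 (0.781%, 0.138 to 4.29) had such a call, against 0 of 40 in hosts without one, which allows up to 7.5%. Counted by host, 36 of 98 hosts with a called start and a SNORD gene (36.7%, 27.9 to 46.6) and 1 of 96 with a SNORA gene (1.04%, 0.184 to 5.67) held a member with a call at its end. Among hosts of a SNORD gene without a called start it was 3 of 41 (7.32%, 2.52 to 19.4). Of the 192 LOC genes in hosts with a called start none had a call within 10 bp, which allows up to 1.56%.

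The contrast between the snoRNA classes was also present when hosts that hold both kinds were pooled, though not in each of them. A total of 9 hosts with a called start contained both kinds, namely EEF1B2, EIF4A1, EIF4A2, NCL, NOP56, RPL21, RPL5, RPS12 and TAF1D. Their SNORD genes had a call within 10 bp in 9 of 15 cases (60%, 35.7 to 80.2) and their SNORA genes in 0 of 18, which allows up to 16.7%. EEF1B2, EIF4A1 and RPL5 each hold 1 SNORD gene, and it had no such call. TAF1D, a subunit of a basal factor of RNA polymerase I, holds 6 SNORA genes without such a call and SNORD5 and SNORD6, of which SNORD6 had its call 1 bp inside. NOP56, which encodes a core protein of box C/D particles, holds 4 SNORD genes, of which SNORD110, SNORD56 and SNORD57 had a call on the annotated end.

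**Figure D4:**
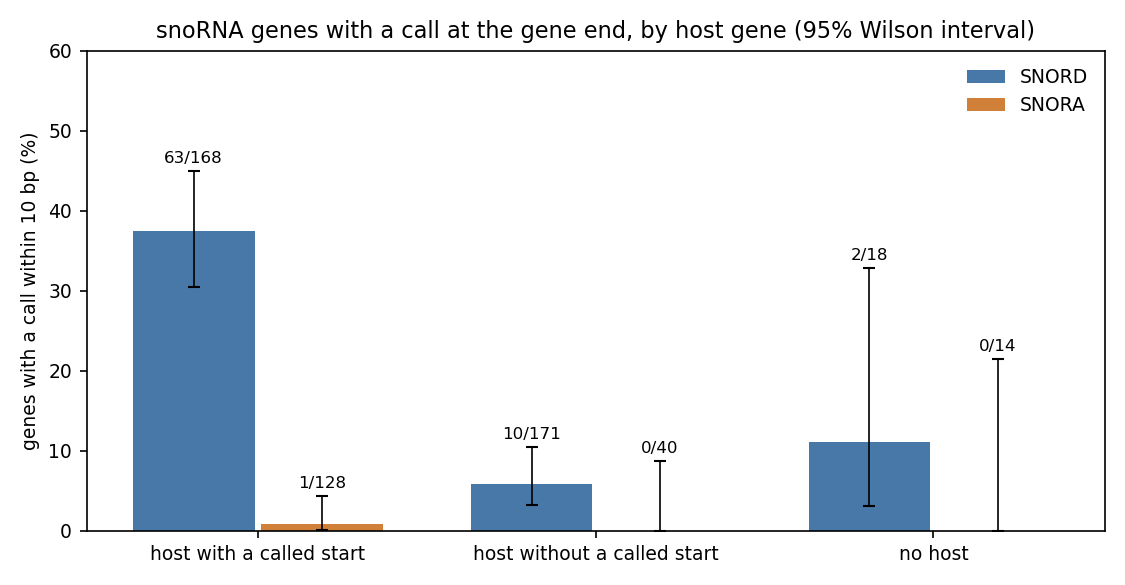
Share of SNORD (blue) and SNORA (orange) genes with a call within 10 bp of a gene end (%), for genes in a host with a called start, in a host without one and outside any host, with counts above the bars and 95% Wilson intervals. The share reaches 37.5% for SNORD genes in hosts with a called start and stays at 0.781% for SNORA genes in such hosts.

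By kind of host with a called start, SNORD genes in ribosomal protein genes had a call within 10 bp in 24 of 39 cases (61.5%, 45.9 to 75.1), those in other protein-coding genes in 24 of 99 (24.2%, 16.9 to 33.5) and those in long noncoding genes in 15 of 27 (55.6%, 37.3 to 72.4). SNORA genes in protein-coding hosts with a called start had 0 of 102, which allows up to 2.94%. Among ribosomal protein genes, RPL23A and RPL7A had all 4 of their SNORD genes called within 10 bp, and RPL13A and RPL4 had 2 of 4. Counted by host, 12 of 16 ribosomal protein hosts (75%, 50.5 to 89.8) and 17 of 69 other protein-coding hosts (24.6%, 16 to 36) with a called start held a SNORD gene called within 10 bp. In that second set RACK1 and ATP5F1B had both of their SNORD genes called, HSPA8, with SNORD14C, SNORD14D and SNORD14E, and WDR43 each had none of 3, and EEF2, EEF1B2, EIF4A1, EIF4G2 and COX7C each had none of 1.

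GAS5, a noncoding gene whose introns carry box C/D snoRNAs, held the largest number of called snoRNA ends. Of its 10 SNORD genes 8 had a call within 10 bp: SNORD44, SNORD47 and SNORD78 at offset 0, SNORD75 at -1 bp, SNORD80 at -2 bp, and SNORD74, SNORD77 and SNORD79 at 2 bp inside. These 8 were the only calls on either strand from 1000 bp before to 1000 bp after GAS5, and the gene's own annotated 5' end had none. SNORD76, SNORD81 and SNORA103, the remaining members in GAS5, had inward calls only where a neighbour's end lay within the window.

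SNHG1, another noncoding host, had a start on its annotated 5' end (62855885 of chromosome 11). Its SNORD25, SNORD26, SNORD27, SNORD28, SNORD29 and SNORD31 each had a call at offset 0, SNORD30 had one 27 bp inside, and SNORD22 was reached only by the call on SNORD31, at an offset of -358 bp. In RPL13A the call of SNORD34 was at offset 0 and that of SNORD32A 1 bp inside, while SNORD33 and SNORD35A were reached only by the call on SNORD34. In ZFAS1 the offsets were 1 bp for SNORD12C, 5 bp for SNORD12 and 11 bp for SNORD12B, all inside. Of the 12 calls that pointed into 3 or 4 members, 10 lay in GAS5 or SNHG1, 1 in RPL13A (SNORD33, SNORD34 and SNORD35A) and 1 in RPL7A (SNORD36A, SNORD36B and SNORD36C). On one strand calls lay at least 251 bp apart, and of 82 SNORD genes without a call within 10 bp in hosts of known strand and with a start there, 6 (7.32%, 3.40 to 15.1) had a host-strand call closer than that. These 6 were the genes with a call 11 to 27 bp inside.

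**Figure D5:**
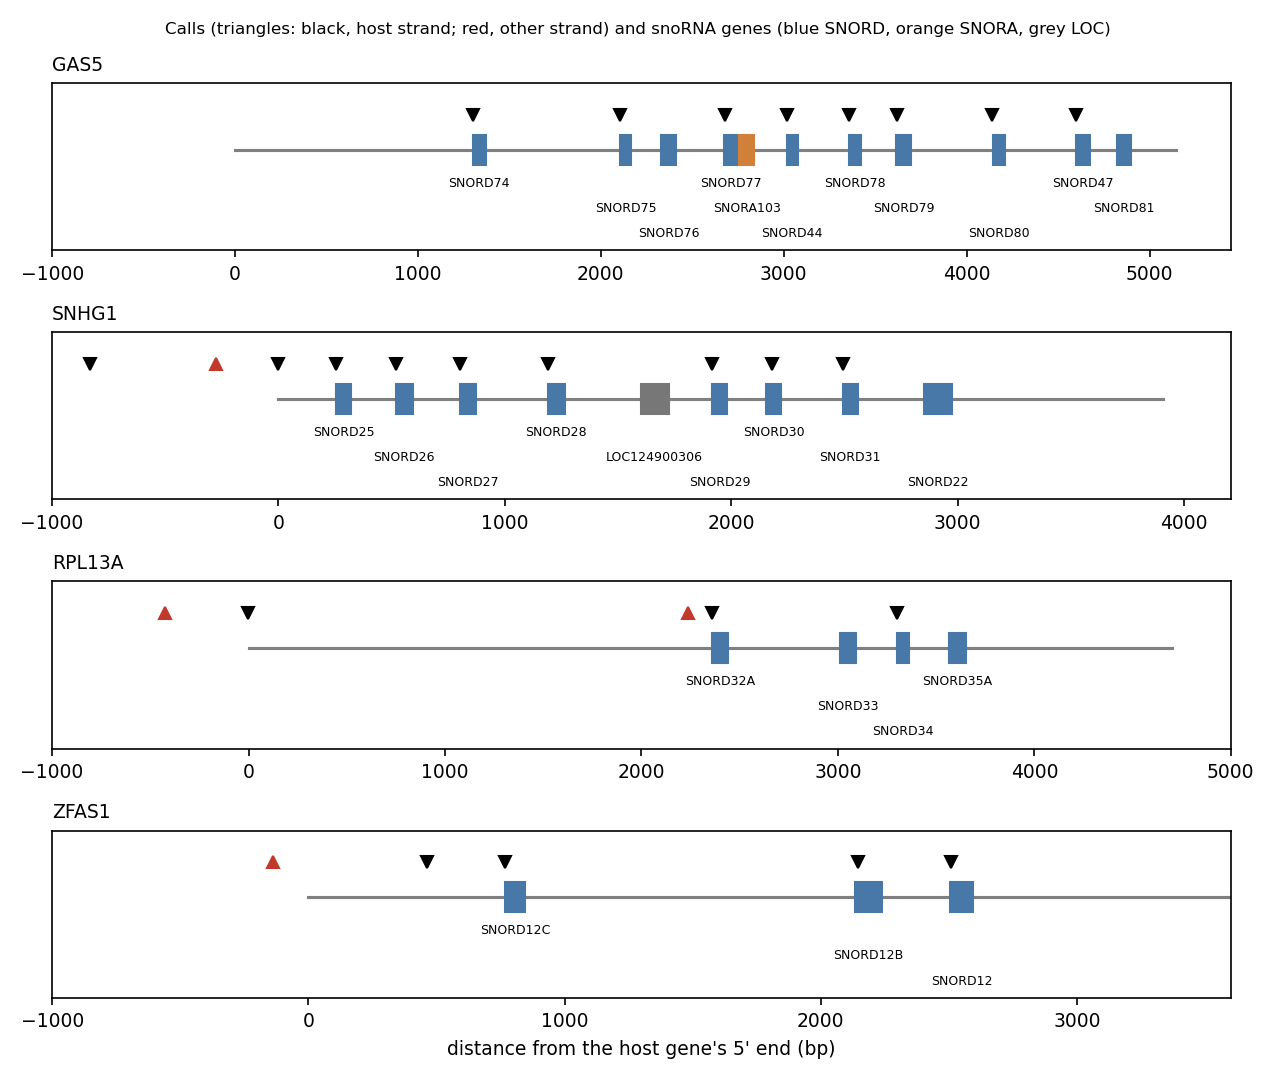
Calls (triangles, black on the host strand and red on the other) over the snoRNA genes (boxes, blue SNORD, orange SNORA, grey LOC) of GAS5, SNHG1, RPL13A and ZFAS1, by distance from the host's annotated 5' end (bp), with the host as a grey line and ZFAS1 shown in part. All 8 calls in GAS5 stand at the left edge of a SNORD box, and none stands at distance 0.

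The starts of these hosts are shown because many hosts are known to begin with a run of pyrimidines, the 5' TOP element of translation genes. From the RefSeq promoter table, 40 bases before and 20 from the call are printed in lower case, with the called base and the pyrimidines that follow it without a break in capitals. SNHG1 lies at chr11:62855866-62855925 (minus strand), ZFAS1 at chr20:49278602-49278661 (plus strand) and RPL13A at chr19:49487567-49487626 (plus strand).
SNHG1: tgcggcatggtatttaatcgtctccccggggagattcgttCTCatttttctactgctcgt
ZFAS1: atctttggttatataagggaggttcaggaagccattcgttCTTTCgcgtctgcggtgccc
RPL13A: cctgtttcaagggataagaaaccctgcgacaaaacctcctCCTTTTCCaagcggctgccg

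The run is 8 bases in RPL13A, 5 in ZFAS1 and 3 in SNHG1. For this comparison a start was a call in the host's promoter window, which differs from the rule on outer ends used above, so that SNHG12 counts as having a start here and not there. Of 28 hosts of a SNORD gene called within 10 bp that have a call in their promoter window, 13 (46.4%, 29.5 to 64.2) had a C at the called base followed by 4 bases that were each C or T, read on the strand of the gene. Other SNORD hosts had it in 4 of 47 cases (8.51%, 3.36 to 19.9) and all genes of the promoter table with a start in the window in 130 of 7349 (1.77%, 1.49 to 2.10). Ribosomal protein genes made up 8 of the 28 hosts and 7 of the 13, and over all ribosomal protein genes of the promoter table with a start in the window the share was 38 of 56 (67.9%, 54.8 to 78.6). Of the other 20 hosts 6 (30%, 14.5 to 51.9) had the run, namely EIF4A2, RABGGTB, RACK1, SNHG26, SNHG5 and ZFAS1.

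SNORA genes with a call within 500 bp were mostly reached from a distance. SNORA73B in SNHG3, a copy of the U17 snoRNA that takes part in cleavage of pre-ribosomal RNA, was the exception with a call on its annotated end (28508558 of chromosome 1). The next nearest were SNORA71C (-62 bp), SNORA103 (-78 bp), SNORA57 (-109 bp), SNORA78 (-126 bp), SNORA17A (171 bp, past the far end), SNORA80B (-234 bp), SNORA27 (-336 bp), SNORA50C (-368 bp) and SNORA26 (396 bp, past the far end). The calls of SNORA71C, SNORA17A and SNORA80B ran against their hosts SNHG17, SNHG7 and ODC1. The calls of SNORA57, SNORA78, SNORA50C and SNORA24 also lay at the end of another gene and had a divergent partner, an opposite-strand call up to 300 bp upstream. Those of SNORA103, SNORA27, SNORA32 and SNORA33 lay on the end of a SNORD gene.

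Among RNU and RNVU1 genes with a call within 10 bp, 10 of 25 had it on the annotated gene end and 15 a few bases outside, and none had it inside the gene. The list of genes with their own promoters held 48 members, of which 31 (64.6%, 50.4 to 76.6) had a call within 500 bp and 27 (56.2%, 42.3 to 69.3) within 10 bp. Of these 27, 10 lay on the gene end and 17 had offsets of -6 to -1 bp. For the minor spliceosome, which removes a rare class of introns, RNU11, RNU12 and RNU4ATAC had offset 0 and RNU6ATAC had no call. For the major spliceosome, RNU4-1 and RNU2-2 had offset 0, RNU4-2 had -2 bp and RNU1-1 -4 bp. Of the U5 genes RNU5A-1 and RNU5E-1 had offset 0, RNU5B-1 had -1 bp and RNU5F-1 -2 bp, and the call of RNU5D-1 lay 89 bp inside. RNU2-63P, annotated as an snRNA gene on chromosome 2, had offset 0 as well. RNU4-1 lies on the other strand within SIRT4 and RNU4ATAC on the other strand within CLASP1-AS1, so these calls ran against the gene around them.

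Among the listed U6 and 7SK genes, those with a call within 10 bp had it 4 or 5 bp before the gene. RN7SK, the RNA that holds the elongation factor P-TEFb inactive, and RNU6-2 had offsets of -5 bp, and RNU6-9 of -4 bp. Such offsets were not limited to these genes, since RNU1-1 had -4 bp and RNVU1-3 and RNVU1-4 had -6 bp. The offsets of tRNA genes are not given here. The U6 genes RNU6-1, RNU6-7 and RNU6-8 had counted calls only 432, 414 and 497 bp from the end. These calls lay past the far end of each gene and pointed away from it.

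Of the U1 variants, RNVU1-19 and RNVU1-30 had offset 0, RNVU1-6, RNVU1-8, RNVU1-14, RNVU1-15, RNVU1-27 and RNVU1-31 had -1 bp, and RNVU1-3 and RNVU1-4 had -6 bp. RNVU1-1, RNVU1-2A, RNVU1-7, RNVU1-17, RNVU1-18, RNVU1-26 and RNVU1-28 had no call, nor had RNU1-2, RNU1-3, RNU1-4 and RNU2-1. Among the independently transcribed snoRNAs, SNORD118 (U8), needed for maturation of the large ribosomal subunit, had offset 0 and SNORD13 (U13) had -1 bp. All 5 listed U3 genes, SNORD3A, SNORD3B-1, SNORD3B-2, SNORD3C and SNORD3D, had no call. Outside the list, SNORD3K and SNORD3P3 of the same family each had a call at -3 bp. Of the 17 listed genes without a call, 16 belong to families of numbered, near-identical copies, and RNU6ATAC is the other. Most of the 48 listed genes are such copies, and 14 of the 15 that are not were called. Copies were also among the called genes, such as 10 of the 17 RNVU1 genes. How reads with several matches were handled is not given in the sources used here, so a missing call at such a copy is uncertain as a measure of its transcription.

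Among SCARNA genes, which guide modification of snRNAs, 4 of 29 (13.8%, 5.50 to 30.6) had an inward call and 2 had it within 10 bp. These were SCARNA2 at offset 0 and SCARNA17 at -1 bp, the pair of SCARNA genes known for promoters of their own. SCARNA9 (283 bp) and SCARNA13 (212 bp) had more distant calls.

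Calls at the ends of snoRNA and snRNA genes rarely came with a divergent partner. Among SNORD genes in a host, 1 of 73 calls within 10 bp (1.37%, 0.242 to 7.36) had an opposite-strand call up to 300 bp upstream, that of SNORD32A at 124 bp. Among RNU and RNVU1 genes 4 of 25 (16%, 6.40 to 34.7) had one, at 249 bp for RNU5A-1, 266 bp for RNU5B-1, 285 bp for RNU4-2 and 292 bp for RNU6-9. The share over all calls at gene ends, which include the starts of coding genes, was 49.1%. Calls inside possible host genes and over 1000 bp from every end of a gene that is no member are nearer in place. Of these 4945 calls, 3480 had no divergent partner.

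Calls at the ends of snoRNA and snRNA genes also make up a small part of the calls found far from other genes. Of the 75 calls within 10 bp of a SNORD end, 44 (58.7%, 47.4 to 69.1) lay more than 1000 bp from every end of a gene that is no snoRNA or snRNA gene. Of the 107 calls within 10 bp of any member end, 63 (58.9%, 49.4 to 67.7) lay as far away. They were 0.961% (0.752 to 1.23) of the 6559 calls at that distance. Among such calls inside possible host genes and without a divergent partner, they were 47 of 3480 (1.35%, 1.02 to 1.79).

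Members of the imprinted snoRNA clusters had no call. The SNORD113 and SNORD114 families on chromosome 14 (9 and 31 genes) and the SNORD115 and SNORD116 families on chromosome 15 (48 and 30 genes) had none of 118 genes called, which allows a share of up to 2.54%, and each of these genes lay in a host without a called start. These families were counted among the numbered, near-identical copies, so a missing call is uncertain here too as a measure of transcription. Among LOC genes, 5 of the 8 called genes had the call within 10 bp, and all of these were of the biotype snRNA. The moves of calls by 10 kb were counted for the 500 bp window only, so they give no background for these 5. LOC124904631 (chromosome 1) and LOC124904122 (chromosome 17) had -1 bp, LOC124903120 (chromosome 12) was 1 bp inside, and LOC124904147 and LOC124904146, on chromosome 17, were 4 and 6 bp inside.

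Genes for proteins that make or carry these RNAs mostly had a called start, in 42 of 50 cases (84.0%, 71.5 to 91.7) against 41.4% of protein-coding genes. All 7 genes of SNAPc and its activators were called, such as SNAPC1 at offset 0 and SNAPC4 1 bp inside, and so were all 4 of the little elongation complex, which promotes snRNA transcription. Of Integrator, which cleaves the 3' ends of snRNAs, 14 of 15 were called, all but INTS3. Of the box C/D proteins FBL, the methyltransferase, NOP56 and NOP58 were called and SNU13 was not. Of the box H/ACA proteins and assembly factors 5 of 6 were called, among them DKC1, the pseudouridine synthase, but not NAF1. The SMN complex, which assembles snRNPs, had 5 of 9. GEMIN4, GEMIN7, SMN1 and SMN2 had no inward call within 500 bp of an end, where SMN1 and SMN2 are near-identical copies. Of the Cajal body and export genes COIL, NOLC1, PHAX and TGS1 were called and WRAP53 was not. Not all genes that failed this rule lacked calls. Counting any call in the gene or within 500 bp, GEMIN7 had 5, SNU13 4, WRAP53 3, GEMIN4 2 and NAF1 1. By that count INTS3, SMN1 and SMN2 had none.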

How the data were processed

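The deposited data were 1 list of called start positions for each strand. Positions deposited by the authors, other values than a measured level, are single bases, printed 1-based in hg38, the build in the submitters' processing notes. The score deposited by the authors is 0 for every call. The tools in those notes are deepTools 3.5.4, SAMtools 1.17, Picard and BWA 0.7.16a. For the calling threshold and the way replicates were combined, nothing is stated in the sources used here.

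Calls and genes on chromosomes 1 to 22 and X were used, and 679 gene entries on other scaffolds were removed. The gene table gives no strand, so both ends of a gene were examined. Python 3.11.15, pandas 2.3.3 and statsmodels 0.14.6 were used. No test was made, since no value per replicate was used. Shares have 95% Wilson intervals, and a count of 0 is given with the limit of 3 counts. On simulated calls planted within 10 bp of 422 of the 1339 genes all were found, and none after their strands were turned round. Members and lists were chosen with earlier results of these data known. The host comparisons, GAS5, SNHG1, RPL13A and ZFAS1 and the sequences were chosen after the values were seen. Other genes were named by rule: all of the list with own promoters, the 10 SNORD and SNORA genes nearest to a call, those with most calls, those sharing a call with 2 or more others, and small subgroups. The planned search for a proximal sequence element was not run, because the promoter table has no entry for the members, and neither was the planned use of their strand. Some genes are not reported here by name.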

Additional observations from a re-analysis of the deposited data

How the results depend on the processing

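Of 70 values under other settings, 47 lay within the 95% interval (for the median offset, the quartiles) of the reported value and 23 outside it. With a 50 bp window the share of all members with a start was 8.44%, and with 200 bp 8.96%. SNORA genes had 0.549% with 50 bp, 3.30% with 200 bp and 12.6% with 1000 bp. With numbered near-identical copies left out, SNORD genes had 39.8% (90 of 226) and the genes with their own promoters 93.3% (14 of 15). Among SNORD genes this setting also removed the 118 genes of the SNORD113 to SNORD116 families, none of which had a call. No RNVU1 gene was left under that setting. With calls moved up by 10 kb, the shares were 2.02% for all members, 2.80% for SNORD, 1.65% for SNORA, 7.69% for RNU and 6.25% for genes with their own promoters, and 0.0% for RNVU1. With calls moved down by 10 kb, they were 1.57% for all members, 1.68% for SNORD, 4.95% for SNORA and 0.0% for RNU, RNVU1 and genes with their own promoters. LOC genes had 1.65% and 0.824% after these moves, around their reported 1.10%, so that their share within 500 bp is at the background. The SNORA share within 500 bp is not clear of the background either, since 4.95% lies inside the interval of the reported 7.14%.

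Outward calls within 10 bp were found at 0.0% of members. Of called members, 7.69% had all their calls at the end of another gene too, and this was 4.20% with a 200 bp and 21.0% with a 1000 bp limit at that gene. A divergent partner was found for 8.39% of called members, and for 1.40% with a 150 bp limit. For the factor genes the share was 94.0% when any call in the gene or within 500 bp counted. The cause of these moves was not tested beyond the settings' own construction. Settings added after the data were seen (the host's strand for the members' 5' end, the host's own 5' end for its start, and 30 bp for 10 bp) left every value within its interval. No paired analysis was possible because the call lists carry no value per replicate, and leaving out a replicate was not possible for the same reason. The authors' threshold could not be made stricter, since every score is 0.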
